A study of Mus musculus with 23 samples.

Results

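The 10 genes described here encode the major histocompatibility complex (MHC) molecules of classes I and II and the proteins that load and regulate them: H2-K1, H2-D1, B2m, Tap1, Tap2, H2-Aa, H2-Ab1, H2-Eb1, Cd74 and Ciita. They were chosen by name and read by gene ID from a deposited table of 49315 genes, and all 10 were found in it. RNA came from the left ventricle of FVB mice, an inbred strain, in 23 libraries of 6 groups. The 3-week groups began exposure at 3 weeks of age and breathed filtered air (4 libraries), e-cigarette vehicle (3 libraries) or e-cigarette vehicle with nicotine (4 libraries). The 3-month groups began at 3 months of age, with 4 libraries each of filtered air, e-cigarette vehicle and e-cigarette vehicle with nicotine. Exposure lasted 3 months in every group, with 4 hours on each of 5 days per week, so the start and the age at the end differ together between the 3-week and 3-month groups. The nicotine groups also received the vehicle, and they are called nicotine below. The labels name no dose and do not say that each library is a separate animal, so p-values measure the spread between these libraries, which may be technical.

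MHC class I molecules are carried by nearly all nucleated cells and show peptides from the cell's own proteins to CD8 T cells. Their heavy chains pair with B2m, and the Tap1 and Tap2 transporter brings in peptides cut by the proteasome. Class II molecules are mostly made by macrophages, dendritic cells and B cells and show peptides from ingested proteins to CD4 T cells; Cd74 guards their groove until loading, and Ciita is the master co-activator of their promoters. Interferon gamma is a classical inducer of both classes. In the heart, resident macrophages and dendritic cells are known class II carriers, while class I is found on endothelium and other cell types.

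The promoters of H2-K1, H2-D1 and B2m are shown for class I, and that of H2-Aa for the class II chains. H2-K1 and H2-D1 moved together most closely of the class I pairs below. RefSeq promoter sequences (build GRCm38.p6, of the C57BL/6 reference strain) were found for 6 of the 10 genes, and the FVB letters may differ. Those of Tap1 and H2-Eb1 are not shown. Each line gives the 250 bases before the annotated start, 5′ to 3′ on the gene's strand. Capitals mark matches on either strand to 5 motifs picked after the sequences were seen: CCAAT (the Y box and other CCAAT boxes), TGACG (the core of a cyclic AMP response element), the interferon-stimulated response element (ISRE), GAANNGAAA (the ISRE shortened by 1 base) and GGGNNTTCC (kappa B like). The windows lie at chr17:34000334-34000583 on the minus strand for H2-K1, chr17:35262844-35263093 on the plus strand for H2-D1, chr2:122147437-122147686 on the plus strand for B2m and chr17:34287824-34288073 on the minus strand for H2-Aa.
H2-K1: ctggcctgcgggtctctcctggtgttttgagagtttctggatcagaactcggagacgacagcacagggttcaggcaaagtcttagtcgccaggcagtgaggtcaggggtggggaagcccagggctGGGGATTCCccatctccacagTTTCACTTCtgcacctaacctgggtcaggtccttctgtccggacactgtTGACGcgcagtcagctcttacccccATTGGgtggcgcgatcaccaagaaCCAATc
H2-D1: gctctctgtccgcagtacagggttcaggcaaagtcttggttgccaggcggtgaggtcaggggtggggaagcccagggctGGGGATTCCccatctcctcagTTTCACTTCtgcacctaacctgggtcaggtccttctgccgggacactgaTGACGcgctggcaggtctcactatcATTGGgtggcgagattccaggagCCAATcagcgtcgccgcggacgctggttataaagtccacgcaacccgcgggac
B2m: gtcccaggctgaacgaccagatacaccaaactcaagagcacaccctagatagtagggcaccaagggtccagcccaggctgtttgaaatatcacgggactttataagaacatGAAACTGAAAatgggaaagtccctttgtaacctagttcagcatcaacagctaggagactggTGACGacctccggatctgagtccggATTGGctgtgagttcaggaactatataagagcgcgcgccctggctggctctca
H2-Aa: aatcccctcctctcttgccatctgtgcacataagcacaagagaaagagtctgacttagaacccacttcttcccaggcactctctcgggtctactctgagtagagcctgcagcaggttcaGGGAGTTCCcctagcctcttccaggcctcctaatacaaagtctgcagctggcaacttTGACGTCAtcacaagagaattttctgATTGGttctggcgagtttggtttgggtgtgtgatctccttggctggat

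H2-K1 and H2-D1 each held 4 of the 5 motifs, all but the ISRE, in the same order. The GAANNGAAA match began 104 bases before the H2-K1 start used here and 150 bases before the H2-D1 start. RefSeq lists a further H2-K1 start, whose window overlaps the one shown. The window of that further start and the H2-D1 window were 87.9% identical over 190 aligned columns. Other pairs of member windows ran from 69.5% to 75.5%, apart from H2-Aa and H2-Eb1 at 84.6% over only 13 columns. B2m held CCAAT, and it held the ISRE, which began 139 bases before the start and which none of the other windows held. Its window also held TGACG. The pattern GGGNNTTCC misses longer forms of the kappa B site, so a window without a match, such as that of B2m, may still hold one. H2-Aa held CCAAT, a palindromic TGACG pair and the kappa B like letters. Of the windows not shown, that of Tap1 held only CCAAT and TGACG, and that of H2-Eb1 only CCAAT. Of all 32851 promoter windows, 33.8% held CCAAT, 17.8% TGACG, 2.98% the ISRE, 6.31% GAANNGAAA and 4.98% GGGNNTTCC. These matches describe letters in a reference sequence and are not measured binding sites.

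Total counts per library ran from 12297955 to 17821550. All 10 genes passed the filter on low counts, which kept 15500 genes. Levels are CPM, the counts of a gene per 1000000 counts of its library, scaled by the trimmed mean of M-values (TMM). Changes are log2 fold changes ± standard error from edgeR's quasi-likelihood test over all 23 libraries, with Benjamini-Hochberg adjustment over the 15500 genes; a gene is called at an adjusted p under 0.05. The defining markers of cardiomyocytes summed to 64387 to 84769 CPM (6 of 6 found in every library), and 11 of 11 macrophage markers summed to 206 to 345 CPM. Markers of atrial cardiomyocytes varied more, from 1.56 to 184 CPM. In whole ventricle, fewer cells of a type and less RNA per cell cannot be told apart.

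Compared per kilobase of exon, the class I heavy chain H2-D1 had the highest mean level over the 23 libraries, at 207 CPM per kb. B2m, the light chain of all class I molecules, followed at 140 CPM per kb and H2-K1, the other classical heavy chain measured here, at 42.4 CPM per kb. Cd74, the invariant chain, reached 40.3 CPM per kb, while the class II chains H2-Ab1 and H2-Aa were at 9.78 and 9.02 CPM per kb. The transporter subunits differed, with Tap2 at 15.1 and Tap1 at 2.47 CPM per kb. H2-Eb1, the class II E beta chain, was at 1.05 and Ciita at 0.149 CPM per kb. H2-Eb1 rested on 9 to 55 reads a library and Ciita on 6 to 38, so their values carry the most counting error. FVB carries other MHC alleles than the C57BL/6 reference strain, and how its reads mapped was not tested. In the GENCODE vM21 transcripts, 9.63% of the distinct 50-base stretches of H2-K1 and 12.8% of those of H2-D1 also occur in another gene, so the split of reads among class I genes is uncertain. Tap1 exons overlap Psmb9 on the opposite strand, Tap2 overlaps Gm15821 and Gm20496, and Ciita overlaps Dexi; the strand setting of the counting is not given in the sources used here.

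H2-K1 spanned 83.2 to 202 CPM over the libraries, a 2.43-fold range, and Tap1 spanned 6.29 to 26.2 CPM, a 4.16-fold range. Tap2 was the steadiest member, with 47 to 74.7 CPM and a 1.59-fold range. Class I genes had their highest group mean in 3-week vehicle in 5 of 5 cases. The class II genes had their highest group mean in a 3-month aerosol group in 5 of 5 cases. When the 6 groups were ordered by mean, the ranges of all 5 neighbouring pairs overlapped for each of the 10 genes.

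**Figure D1:**
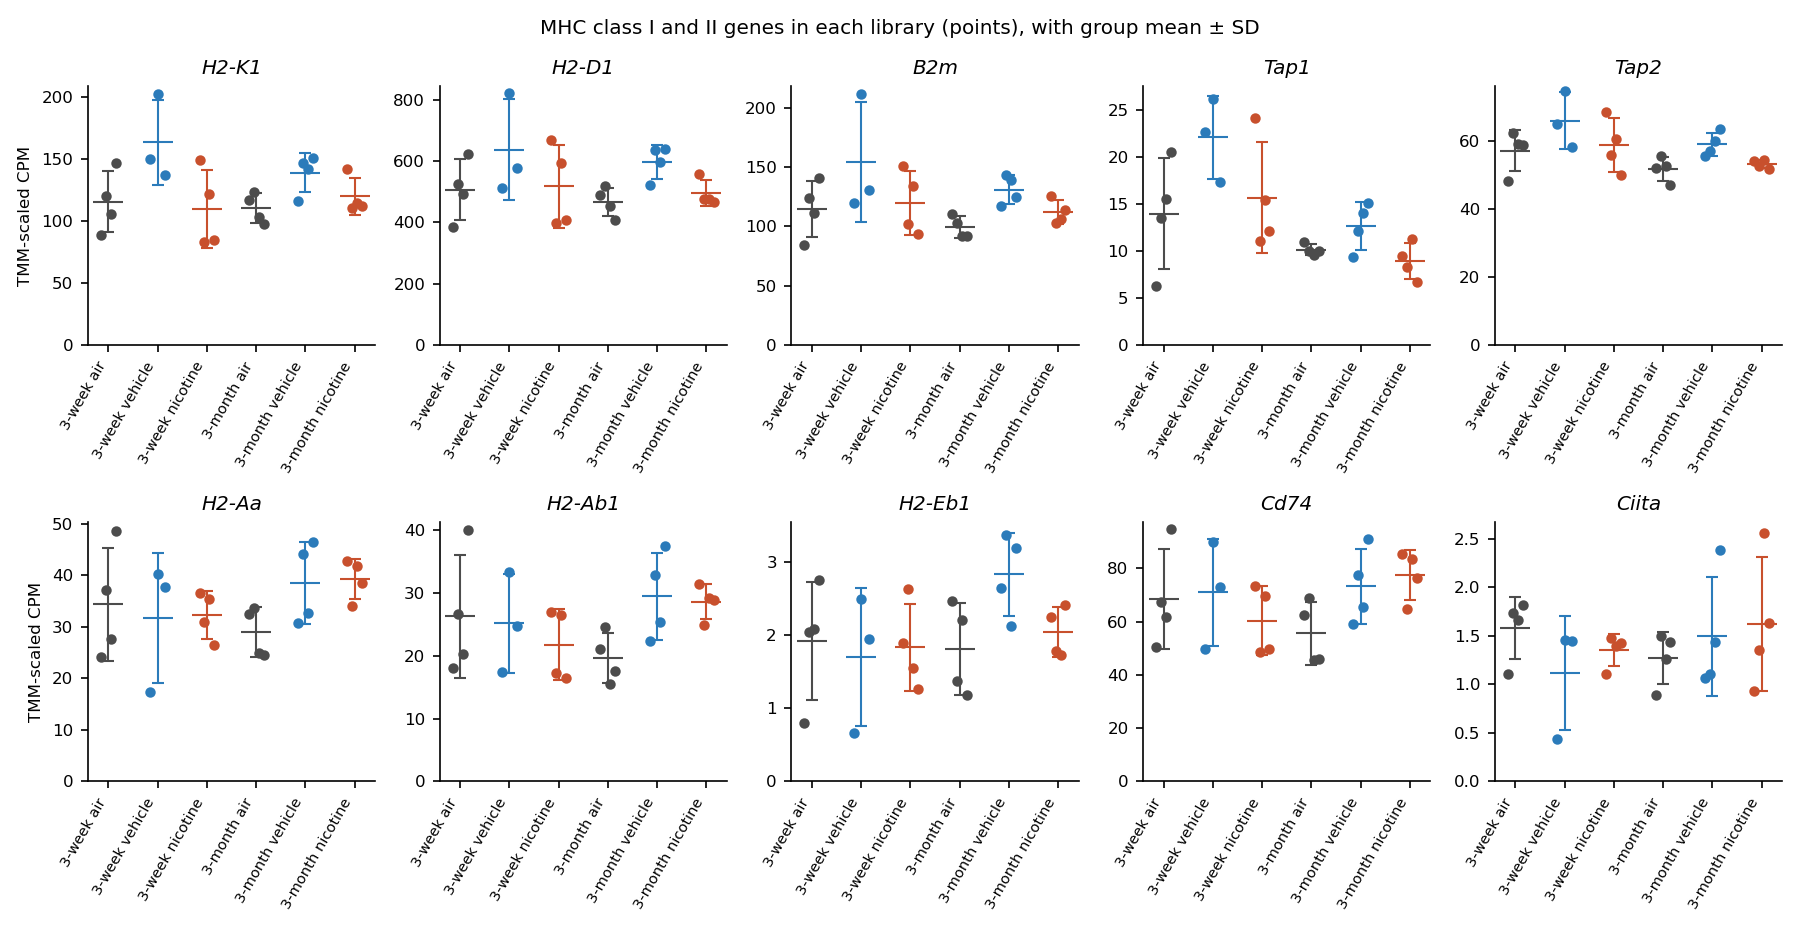
TMM-scaled CPM (y axes, from 0) of the 10 genes in each library (points) of the 6 groups (x axes), with the group mean (dash) and SD (bar). The 3-week groups spread widely, such as H2-D1 from 384 to 625 CPM in 3-week air, and the 3-month groups less, from 409 to 518 CPM in 3-month air.

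Across all 6 groups, Tap1 was the only one of the 10 genes that differed (edgeR quasi-likelihood F test, adjusted p = 0.0185), where 27.2% of all 15500 genes were called. Its group means ± SD were 13.9 ± 5.9 CPM in 3-week air (n = 4), 22 ± 4.45 in 3-week vehicle (n = 3) and 15.6 ± 5.92 in 3-week nicotine (n = 4). In the 3-month groups they were 10.1 ± 0.61 CPM in air, 12.6 ± 2.52 in vehicle and 8.91 ± 1.9 in nicotine (n = 4 each). The call rested on the vehicle libraries of the 3-week start: adjusted p = 0.0718 without 3-week vehicle library 1, 0.0822 without library 2 and 0.208 without both. H2-K1 had an adjusted p of 0.0913 and B2m of 0.106, and Ciita the highest, at 0.746. DESeq2 called Tap1 alone among the members (adjusted p = 0.00135), where it called 38.9% of all genes.

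Vehicle was compared with air to ask what the aerosol base alone does. At the 3-week start none of the 10 genes was called, against 16.2% of all genes, while 3 members had an unadjusted p under 0.05 (37.3% of all genes did). DESeq2 called 0 members too. The 5 class I genes all had positive changes, with a median of 0.43, and the 5 class II genes had a median of -0.11. Over all genes the median was 0.02, and 51.2% had a positive change.

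H2-K1 measured 89, 120, 106 and 147 CPM in 3-week air libraries 1, 2, 4 and 5. In 3-week vehicle libraries 1, 2 and 4 it measured 150, 202 and 137 CPM. The groups overlapped only between air library 5 and vehicle library 4, and the fitted change was 0.50 ± 0.189 (unadjusted p = 0.0149, adjusted p = 0.0676). Without 3-week vehicle library 4, H2-K1 passed the threshold at 0.58 (adjusted p = 0.0278), but so did 44% of all genes in that fit; over all alternatives run the adjusted p went from that value to 1.

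Tap1, whose gene is a classical interferon gamma target, measured 6.29, 13.4, 15.5 and 20.5 CPM in 3-week air and 22.6, 26.2 and 17.3 CPM in 3-week vehicle. Its change was 0.66 ± 0.283 (adjusted p = 0.0963). B2m measured 84.1, 124, 111 and 141 CPM in air against 120, 212 and 131 CPM with vehicle. Its change was 0.43 ± 0.186 (adjusted p = 0.104) and fell to 0.13 without 3-week vehicle library 2, the highest of its group for all 10 genes. Atrial markers summed to 184 CPM in that library, against 15.3 and 2.07 CPM in vehicle libraries 1 and 4. In 3-week air they summed to 114 CPM in library 1 and to 2.62, 1.87 and 8.92 CPM in libraries 2, 4 and 5. The part of atrial tissue in these changes was not tested. H2-D1 changed by 0.33 ± 0.183 and Tap2 by 0.21 ± 0.108, neither of them called.

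Class II changes were mixed in this comparison. H2-Aa, the class II A alpha chain, measured 24.1, 37.1, 27.6 and 48.6 CPM in 3-week air and 17.3, 40.3 and 37.7 CPM in 3-week vehicle. The groups overlapped, and the change was -0.11 ± 0.244 (95% interval -0.62 to 0.39). Cd74 measured 50.6, 67.5, 61.6 and 94.7 CPM in air and 49.8, 90 and 73 CPM with vehicle, a change of 0.05 ± 0.221. H2-Ab1 changed by -0.06, H2-Eb1 by -0.16 and Ciita by -0.49 ± 0.371. Vehicle library 1 stood apart: it had the lowest H2-Aa (17.3 CPM), H2-Eb1 (0.661 CPM) and Ciita (0.441 CPM) of all 23 libraries, yet its H2-K1 was above every 3-week air library. Its blood markers summed to 2358 CPM, against 504 to 929 CPM in 3-week air, and their part in the result was not tested.

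**Figure D2:**
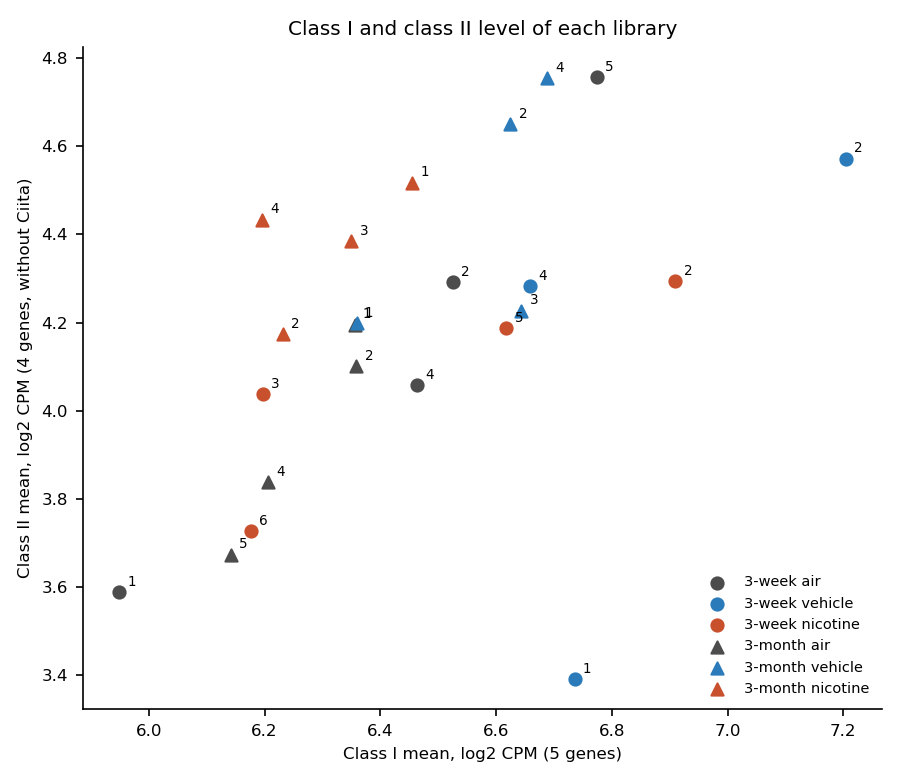
Mean log2 CPM of the 5 class I genes (x axis) and of H2-Aa, H2-Ab1, H2-Eb1 and Cd74 (y axis) in each library; colour is the exposure, circles are the 3-week and triangles the 3-month start, and numbers are library numbers. 3-week vehicle library 1 lies at 6.74 and 3.39, low in class II for its class I level, and 3-week air libraries 1 and 5 lie near opposite ends.

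At the 3-month start, all 10 genes had higher fitted levels with vehicle than with air, with a class I median of 0.33 and a class II median of 0.41. None was called with all libraries in the fit, and neither was any other gene (0% of all genes). Of the members 3 had an unadjusted p under 0.05, as did 14.2% of all genes (2200); DESeq2 called 86 genes and 0 members. When only the 8 libraries compared entered the fit, H2-K1, H2-D1, B2m and H2-Ab1 were called higher, against 7.65% of all genes called higher in that fit. This fit takes its spread from the 3-month libraries alone. The same 4 genes were called with all 12 libraries of the 3-month start, where 18.7% of all genes were called in either direction. Macrophage markers summed to 234 to 318 CPM with vehicle and 223 to 253 CPM in air, and dendritic cell markers to 26.7 to 32.1 and 19.9 to 29.9 CPM. T and NK cell markers were near 0 in both groups but did not overlap, at 2.31 to 3.89 and 1.52 to 2.27 CPM. The part of these cells in the vehicle difference was not tested.

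H2-D1 measured 488, 518, 453 and 409 CPM in 3-month air libraries 1, 2, 4 and 5 and 521, 637, 597 and 639 CPM in 3-month vehicle libraries 1 to 4. Every vehicle library was above every air library. The change was 0.36 ± 0.17 over all libraries (adjusted p = 0.348) and 0.36 ± 0.084 with the compared groups only (adjusted p = 0.0108). B2m measured 111, 103, 91.8 and 92 CPM in air and 117, 143, 139 and 125 CPM with vehicle, again without overlap. Its change was 0.40 ± 0.174 (adjusted p = 0.332), or 0.41 ± 0.0841 with the compared groups only (adjusted p = 0.00674). In all, 8.52% of genes had every vehicle library above every air library in this comparison.

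H2-K1 measured 117, 123, 103 and 97.7 CPM in air and 116, 147, 142 and 151 CPM with vehicle; vehicle library 1 lay within the air range. Its change was 0.33 ± 0.176 (adjusted p = 0.383), and 0.34 with the compared groups only (adjusted p = 0.0273). H2-Ab1, the class II A beta chain, measured 21.1, 24.5, 15.5 and 17.6 CPM in air and 22.3, 32.8, 25.3 and 37.3 CPM with vehicle. Its change was 0.58 ± 0.239 (adjusted p = 0.323), and 0.59 with the compared groups only (adjusted p = 0.0474). H2-Eb1 changed by 0.65 ± 0.341, H2-Aa by 0.41, Cd74 by 0.40, Tap1 by 0.32, Ciita by 0.23 and Tap2 by 0.19, none of them called in either fit. With the compared groups only, 2 members were called without any one of 3-month air libraries 4 and 5 and vehicle libraries 2, 3 and 4. In those fits 9.06% to 16.8% of all genes were called. Without air library 1, 3 members and 14.9% of all genes were called, and without air library 2, 4 and 12.9%. Without vehicle library 1, 6 members and 20.6% of all genes were called. H2-D1 and B2m were called each time. With the compared groups and a correction for gene length 1 member remained, H2-D1 (adjusted p = 0.0277), where 12.9% of all genes were called. B2m, the shortest of the members at 860 bases, then had a change of 0.18 (adjusted p = 0.155).

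**Figure D3:**
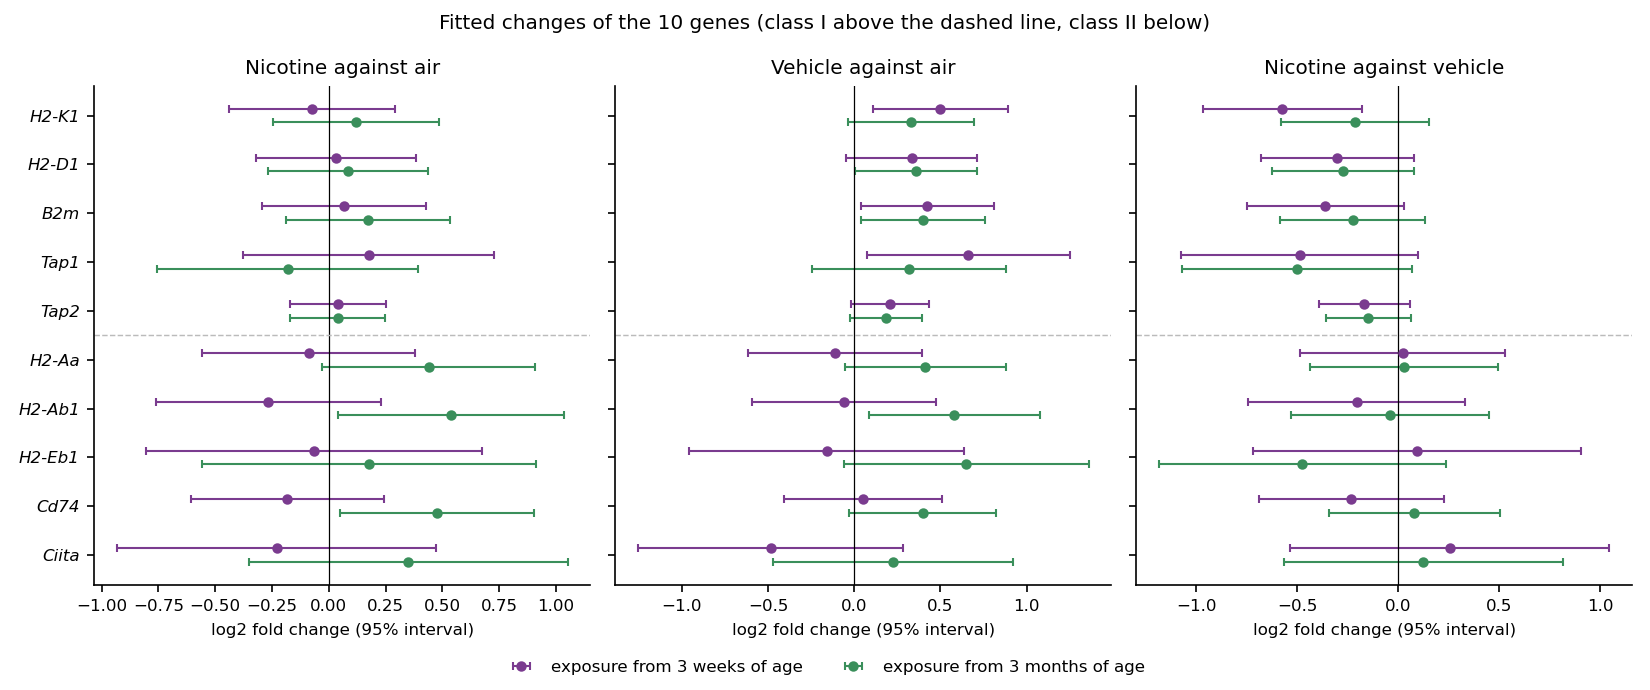
Log2 fold changes with 95% intervals (x axes) of the 10 genes (y axis) in 3 panels (nicotine or vehicle against air, and nicotine against vehicle) and for both starting ages, from the fit over all 23 libraries. For vehicle against air the class I genes lie right of 0 at both starts, and the class II genes lie right of 0 at the 3-month start.

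Nicotine aerosol was compared with air as the whole exposure. At the 3-week start no member was called (0.813% of all genes were), no member had an unadjusted p under 0.05, and DESeq2 called 0 members. H2-K1 measured 149, 83.2, 121 and 84.8 CPM in 3-week nicotine libraries 2, 3, 5 and 6, which covers the range of 3-week air. Its change was -0.07 ± 0.177 (95% interval -0.44 to 0.29). H2-Ab1 measured 26.9, 17.2, 26.4 and 16.5 CPM with nicotine and 18.1, 26.7, 20.2 and 39.9 CPM in air, a change of -0.27 ± 0.239. The other class II changes were -0.23 for Ciita, -0.18 for Cd74, -0.09 for H2-Aa and -0.06 for H2-Eb1, and the other class I changes 0.18 for Tap1, 0.07 for B2m, 0.04 for Tap2 and 0.03 for H2-D1. The authors' deposited table for this comparison called 0.972% of its genes at an adjusted p under 0.05 and none of the 10, with adjusted p of 0.848 for H2-Ab1 and 0.99 for H2-D1.

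At the 3-month start, the class II genes had the larger fitted differences between nicotine and air, with a median of 0.44 against 0.08 for class I. No member and 0% of all genes were called, while 2 members and 408 genes (2.63%) had an unadjusted p under 0.05; DESeq2 called 2 genes and 0 members. H2-Ab1 measured 31.4, 24.8, 29.1 and 28.9 CPM in 3-month nicotine libraries 1 to 4, all above the air libraries, whose highest was 24.5. H2-Aa measured 42.7, 34, 41.7 and 38.5 CPM with nicotine and 32.5, 33.7, 24.9 and 24.6 CPM in air, also without overlap. Among all genes 1.99% were separated in this direction.

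H2-Ab1 changed by 0.54 ± 0.24 and H2-Aa by 0.44 ± 0.226 (adjusted p = 1 for both, edgeR). Cd74 measured 85.4, 64.8, 83.5 and 76.2 CPM with nicotine and 62.4, 68.9, 45.5 and 45.8 CPM in air, overlapping at 1 library of each group, and changed by 0.48 ± 0.205. The authors' deposited table for this comparison gave H2-Ab1 a log2 fold change of 0.53 and an adjusted p of 0.0489, where 0.32% of its 13447 genes passed. In the same authors' deposited table H2-Aa had an adjusted p of 0.131 and Cd74 of 0.155, and the other members 0.999. With only the compared groups in the edgeR fit, H2-Ab1 had an adjusted p of 0.333 and was not called. Ciita changed by 0.35 ± 0.338 and H2-Eb1 by 0.18 ± 0.355, with intervals that span 0. Class I changes were -0.18 for Tap1, 0.04 for Tap2, 0.08 for H2-D1, 0.12 for H2-K1 and 0.17 for B2m. The macrophage markers summed to 225 to 273 CPM with nicotine and 223 to 253 CPM in air, and the dendritic cell markers (7 of 7 found, Flt3 and Cd209a at 0 in some libraries) to 21.3 to 30.9 and 19.9 to 29.9 CPM. Their part in the class II values was not tested.

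Nicotine against vehicle asks what nicotine adds to the aerosol, and it shares its vehicle libraries with the vehicle comparison above. All 5 class I genes had lower fitted levels with nicotine at both starts, with medians of -0.36 at the 3-week and -0.23 at the 3-month start. Of all genes, 48.2% had a positive change at the 3-week and 48.4% at the 3-month start. No member and 0% of all genes were called at either start. At the 3-week start 1 member and 2992 genes had an unadjusted p under 0.05 and DESeq2 called 254 genes; at the 3-month start 0 members and 1889 genes did, and DESeq2 called 13 genes. DESeq2 called 0 members at both. H2-K1 at the 3-week start had the smallest p, with a change of -0.57 ± 0.189 (unadjusted p = 0.00618, adjusted p = 0.16), and it passed without 3-week vehicle library 4 (-0.66, adjusted p = 0.0189), where 30.3% of all genes were called. The other class I changes at that start were -0.49 for Tap1, -0.36 for B2m, -0.30 for H2-D1 and -0.17 for Tap2. The class II changes there were 0.26 for Ciita, 0.09 for H2-Eb1, 0.02 for H2-Aa, -0.21 for H2-Ab1 and -0.23 for Cd74.

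At the 3-month start Tap2 measured 54.1, 52.6, 54.4 and 51.7 CPM with nicotine, all below the vehicle libraries at 55.5, 57, 59.8 and 63.4 CPM, as were 6.66% of all genes. The change was small, at -0.15 ± 0.101 (adjusted p = 0.501). H2-D1 measured 559, 477, 477 and 467 CPM with nicotine, and nicotine library 1 alone lay within the vehicle range. With the compared groups only, H2-D1 was called lower (-0.30 ± 0.0789, adjusted p = 0.0222), where 5.99% of all genes were; the call held without vehicle library 1 or nicotine library 1 and was lost without any of the other 6 libraries. It was also lost with the correction for gene length (-0.22, adjusted p = 0.0549), where B2m went from -0.25 to -0.00926. Tap1 measured 9.45, 8.28, 11.2 and 6.69 CPM with nicotine and 9.31, 12.1, 14 and 15 CPM with vehicle, a change of -0.50 ± 0.274 (adjusted p = 0.426). The class II genes showed no common direction: H2-Aa changed by 0.03, Cd74 by 0.08, H2-Ab1 by -0.04, Ciita by 0.12 and H2-Eb1 by -0.48. Of the class I genes not yet given, H2-K1 changed by -0.21 and B2m by -0.23.

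The air groups of the 2 starts compare ages without aerosol. All 10 genes had lower fitted levels in 3-month than in 3-week air, with medians of -0.14 for class I and -0.30 for class II, and none was called (0.00645% of all genes were). Of all genes, 49% had a positive change. Tap1 changed by -0.46 ± 0.27, B2m by -0.21, Tap2 by -0.14, H2-D1 by -0.12 and H2-K1 by -0.07. Of the class II genes H2-Ab1 changed by -0.41 ± 0.239, Ciita by -0.31, Cd74 by -0.30, H2-Aa by -0.25 and H2-Eb1 by -0.09. The spread was wider in 3-week air, where library 1 was the lowest for 10 of 10 members and library 5 the highest for 9. Macrophage markers summed to 223 to 253 CPM in 3-month air and 278 to 345 CPM in 3-week air, without overlap. Dendritic cell markers summed to 19.9 to 29.9 and 30.2 to 39.1 CPM. B cell markers were near 0 and went the other way, at 1.62 to 4.48 and 1.18 to 1.6 CPM. The part of these cells in the age difference was not tested.

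The difference between the starts was tested as an interaction. For the nicotine effect, here nicotine aerosol against air with the vehicle included, no member was called (0.135% of all genes were). Of the members 2 had an unadjusted p under 0.05, as did 10.2% of all genes. H2-Ab1 differed by -0.80 ± 0.339 (edgeR, adjusted p = 0.387) and Cd74 by -0.66 ± 0.29 (adjusted p = 0.422), neither of them called. Their fitted change with nicotine aerosol against air was lower at the 3-week start, and what nicotine itself adds is not separated here. The other class II differences were -0.58 for Ciita, -0.53 for H2-Aa and -0.24 for H2-Eb1. Class I differences took both signs, from 0.36 ± 0.384 for Tap1 to -0.19 for H2-K1, with -0.11 for B2m, -0.05 for H2-D1 and 0.00231 for Tap2. For the vehicle effect, no member and 0% of all genes were called, and 0 members and 1861 genes had an unadjusted p under 0.05; DESeq2 called 81 genes and 0 members. All 5 class II differences were negative, at -0.81 ± 0.515 for H2-Eb1, -0.71 ± 0.5 for Ciita, -0.64 ± 0.351 for H2-Ab1, -0.52 for H2-Aa and -0.35 for Cd74. Of all genes, 51.5% had a positive difference. Class I differences were 0.34 ± 0.392 for Tap1, 0.17 for H2-K1, 0.03 for B2m, 0.02 for Tap2 and -0.03 for H2-D1. DESeq2 called 0 members for the nicotine effect and for the air groups as well.

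Deviations from the group means showed how the genes varied together within groups. Pearson's r was computed for all 45 pairs over 23 libraries, with 20000 permutations within groups and Benjamini-Hochberg adjustment over the 45 pairs. Libraries share their depth and tissue piece, so r describes libraries and not cells. The share of pairs of other genes that would pass was not computed. The counts of pairs below therefore cannot show a tie particular to these genes. Within class I, r ran from 0.713 to 0.964 and all 10 pairs had an adjusted p under 0.05. Most of these pairs were looser in the 3-month libraries, where r was 0.262 for B2m and Tap1, 0.266 for B2m and Tap2 and 0.497 for H2-D1 and Tap1, against 0.801, 0.877 and 0.823 in the 3-week libraries. H2-K1 and H2-D1 had r = 0.964 and rho = 0.97 (permutation p = 5e-05 for both, the smallest these permutations can give, adjusted p = 0.000375 and 0.000225). Without the 2 libraries farthest from the median their r was 0.952, and it was 0.965 in the 3-week and 0.976 in the 3-month libraries. Of the H2-K1 stretches of 50 bases, 9.63% are shared with some other gene, and the part of shared reads in this r was not tested.

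Among the class II genes H2-Ab1 and Cd74 had the highest r, at 0.972 with rho = 0.961 (permutation p = 5e-05 for both, adjusted p = 0.000375 and 0.000225), and 0.965 without the 2 farthest libraries. The pair lies on different chromosomes, 17 for H2-Ab1 and 18 for Cd74. It held at r = 0.982 in the 3-week and 0.96 in the 3-month libraries. H2-Aa followed both, with r = 0.914 to H2-Ab1 and 0.921 to Cd74. Ciita, the co-activator, was far looser: its r to Cd74 was 0.442 (rho = 0.457, permutation p = 0.0817 and 0.0609, adjusted p = 0.108 and 0.0884), and its few reads limit what can be seen. H2-Eb1 and Ciita had r = 0.393, which fell to 0.0233 without the 2 farthest libraries. In total, 4 of the 10 class II pairs and 13 of the 25 pairs between classes had an adjusted p under 0.05. H2-D1 and H2-Ab1 led the latter, with r = 0.881 and rho = 0.884 (permutation p = 1e-04 and 5e-05, adjusted p = 0.00045 and 0.000225), 0.873 without the 2 farthest libraries.

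**Figure D4:**
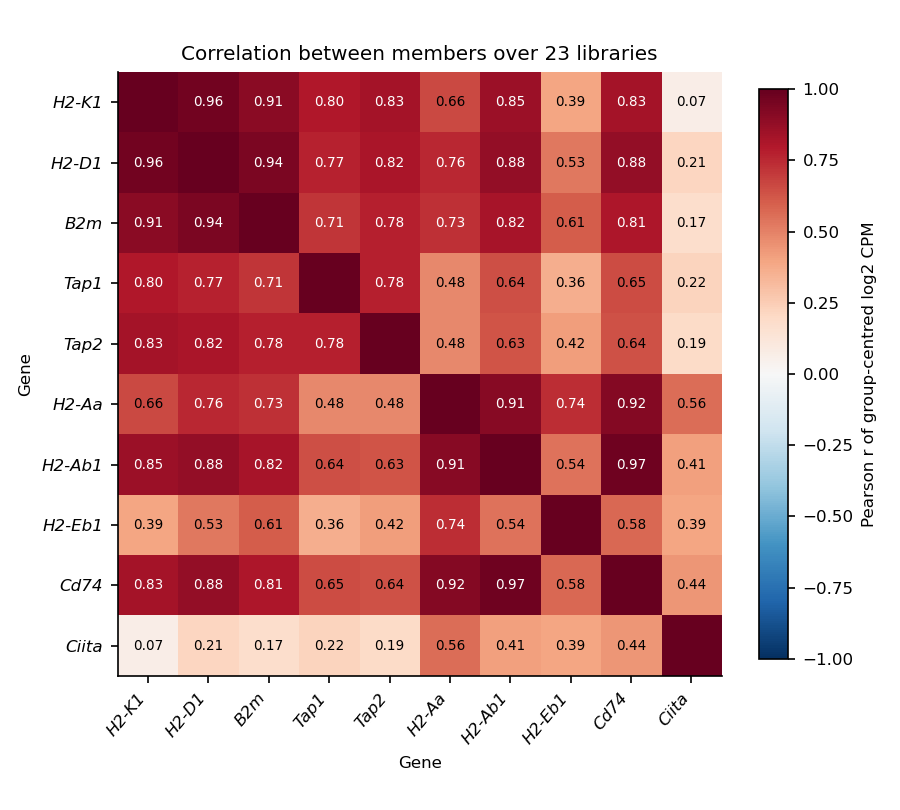
Pearson r of group-centred log2 CPM over 23 libraries for each pair of the 10 genes (both axes), coloured from -1 to 1. The class I block runs from 0.713 to 0.964, H2-Aa, H2-Ab1 and Cd74 form a block from 0.914 to 0.972, and Ciita is loosely tied to the class I genes.

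Of 11503 other genes ranked by likeness to the class I mean over the 23 libraries (group-centred log2 CPM), the first 5 were H2-Q4 (r = 0.966), H2-Q6 (0.924), Nlrc5 (0.889), Gjc1 (0.883) and Tapbp (0.88). H2-Q4 and H2-Q6 are other class I heavy chains and can share reads with H2-K1 and H2-D1, Nlrc5 is the class I co-activator related to Ciita, Tapbp is tapasin of the loading complex, and Gjc1 encodes a connexin. The genes most like the class II mean were Tapbp (r = 0.821), Ggh (0.818), Pawr (0.804), Igfbp3 (0.788) and Rassf1 (0.783). They are the top of a long ranking, given as a description without a test.

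The other genes of the pathway were read from 7 lists of 53 genes, of which 48 passed the filter. For vehicle against air at the 3-week start 5 of 48 were called higher, against 9.27% of all genes, and 3 lower, against 6.92%. Of 5 genes of the immunoproteasome, the inducible form that cuts peptides for class I, 4 rose: Psmb8 by 0.92 ± 0.22 (adjusted p = 0.0211), Psmb9 by 0.82 ± 0.254 (0.0381), Psmb10 by 0.61 ± 0.155 (0.0239) and Psme2, part of its activator, by 0.59 ± 0.147 (0.023). Psme1 changed by 0.13. Psmb8 ranged from 12.8 to 22 CPM in air and from 22 to 45.4 CPM with vehicle. Psmb9 overlaps Tap1, so these values are not independent without strand.

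These 4 calls, and the 4 of other lists below, rested on few libraries. All 8 were lost without any one of 3-week air libraries 1 and 5 and 3-week vehicle libraries 1 and 2, and with only the compared groups in the fit. H2-Q6, a class I heavy chain, rose by 1.23 ± 0.363 (adjusted p = 0.0331), the only called gene of 12 other class I and class I-like molecules measured. H2-Q6 and Psmb9 were also lost with no filter on low counts, where 4.19% of all genes were called. Ctsb and Lgmn, proteases of the endosome, fell by 0.40 ± 0.117 and 0.36 ± 0.0986 (2 of 6 in their list; adjusted p = 0.0318 and 0.028). Ifngr2, a chain of the interferon gamma receptor, fell by 0.53 ± 0.177 (1 of 4; adjusted p = 0.0455). Ifng itself did not pass the filter. None of the 6 class I loading genes, 5 other class II genes or 10 transcription factors measured was called in this comparison. In any other comparison of pairs of groups or of the starts with all libraries in the fit, 0 of the 48 was called. Across all 6 groups, 4 of 5 immunoproteasome genes were called, where 27.2% of all genes were. That test also called 1 of 12 other class I, 1 of 5 other class II, 1 of 6 endosomal and 1 of 10 transcription factor genes.

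At the 3-month start Psmb8, Psmb9 and Psmb10 had every vehicle library above every air and nicotine library, while Psme2 overlapped between vehicle and nicotine. Psmb8 ranged from 17.8 to 21.9 CPM with vehicle, from 14.1 to 16.7 CPM in air and from 14.3 to 15.8 CPM with nicotine. Psmb10 ranged from 70.4 to 78.3 CPM with vehicle, from 54.6 to 66.9 CPM in air and from 57.4 to 65.3 CPM with nicotine. The vehicle libraries lay above all others of that start for both genes (8.52% of all genes had vehicle above air without overlap, and 6.66% had nicotine below vehicle), and for Psmb9 too, at 8.07 to 12.2 CPM against at most 7.9 CPM. With all libraries in the fit none was called (Psmb8 0.40 ± 0.21 against air, adjusted p = 0.381). With the compared groups only, 4 of 5 were called higher with vehicle than with air (7.65% of all genes were), and 3 of 5, Psmb8, Psmb9 and Psmb10, lower with nicotine than with vehicle (5.99% were). With the correction for gene length added, 2 of 5, Psmb8 and Psmb9, remained in each comparison, where 12.9% and 11.2% of all genes were called. The first count was 1 without 3-month vehicle library 3, 2 without vehicle library 2 and 3 or 4 without each of the others. The second was 2 to 4. In these fits 9.06% to 20.6% of all genes were called for the first and 8.32% to 18.9% for the second. These genes were named here after their values were seen.

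**Figure D5:**
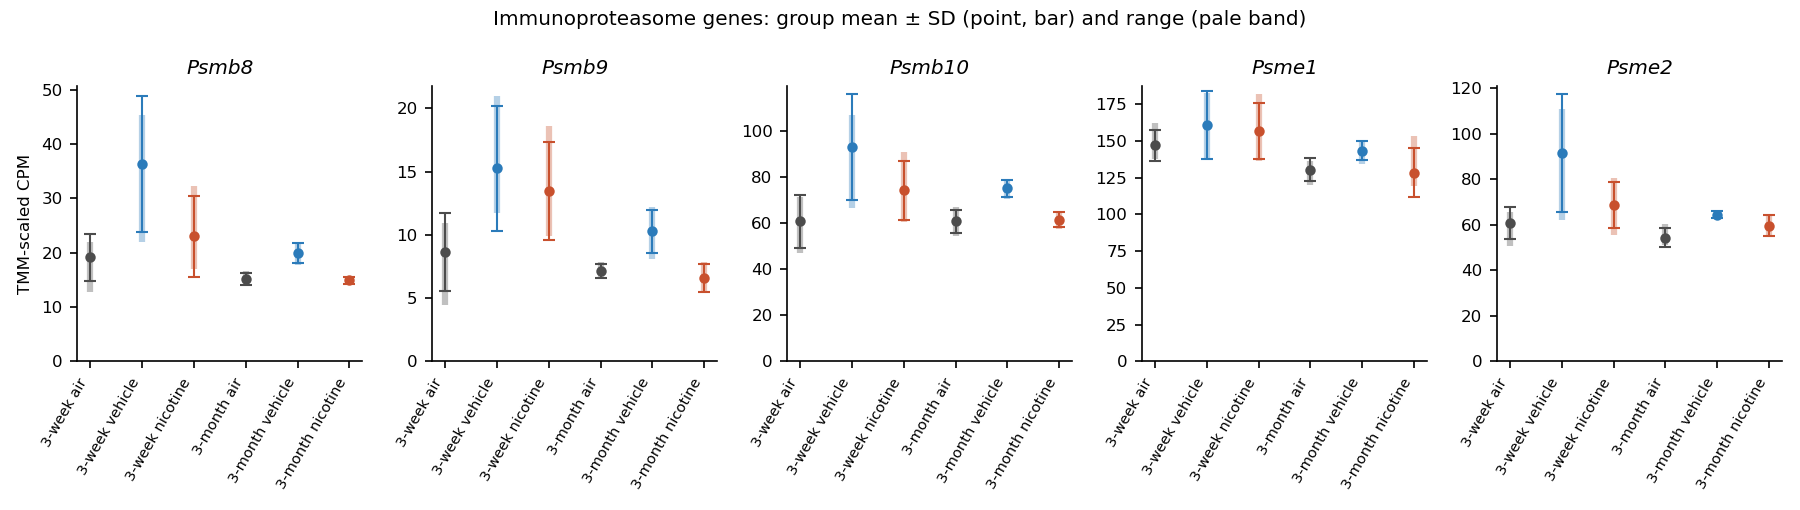
TMM-scaled CPM (y axes, from 0) of 5 immunoproteasome genes by group (x axes): mean (point), SD (bar) and range (pale band). With the 3-month start Psmb8 lies at 17.8 to 21.9 CPM with vehicle, above air and nicotine, and the 3-week groups spread more widely.

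Markers of lymphocytes were near 0 in all groups: B cell markers summed to 1.03 to 4.48 CPM and T and NK cell markers to 0.904 to 3.89 CPM, with Cd3d, Cd8a, Nkg7 and Ncr1 at 0 in some libraries. Dendritic cell markers summed to 34 to 47.9 CPM in 3-week vehicle and 30.2 to 39.1 CPM in 3-week air, and endothelial markers to 614 to 998 and 742 to 1088 CPM. The part of these cells in the class I values was not tested.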

How the data were processed

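RNA-seq counts per gene were the measure, 1 column for each of 23 libraries. Tools named in the submitters' processing notes are STAR 2.5.2b, Subread 1.5.2 with featureCounts, Trimmomatic 0.36 and DESeq2, while the sources used here give no build, annotation or strand setting. The deposited counts are whole numbers without normalization. The deposited tables of the authors' nicotine against air comparisons hold log2 fold changes and p-values, used as such, and a normalized signal per library, the authors' count divided by a size factor, not used. Genes were filtered with filterByExpr (minimum count 10), scaled by TMM and fitted in edgeR 4.0.16 (robust quasi-likelihood, R 4.3.3) with 1 mean per group. The fit was run on simulated counts with larger changes than the members showed and a smaller spread than the common one here. That run cannot show whether changes of the members' size would be called. The members, the lists and the tests were chosen with earlier results of these data known. All members are named in each comparison, up to 4 called genes per pathway list by p, and the 5 genes most like each class mean. Alternatives were RLE scaling, no filter, DESeq2 1.42.0, only the compared groups, a replicate block, a length offset and left-out libraries.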

Additional observations from a re-analysis of the deposited data

Results flagged for a closer look

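In 50 sets of 4 libraries (10 genes in 5 groups), 2 had a highest or lowest library farther from the rest than Dixon's test allows at the 95% level; chance gives about 5% of sets. In 3-month nicotine library 1, H2-K1 measured 142 CPM, against 110 to 114 CPM in the other three. H2-D1 in the same library measured 559 CPM, against 467 to 477 CPM. The 10 sets of 3-week vehicle, with 3 libraries each, were not tested.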

How the results depend on the processing

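With all libraries, 0 members were called in each of 9 contrasts and 1 across the groups, and RLE scaling, no filter, DESeq2 and the length offset gave the same counts. For vehicle against air at the 3-month start, 4 were called with the compared groups only, 4 with the libraries of that start only and 1 with the compared groups and the length offset. In those fits 18.4%, 18.7% and 12.9% of all genes were called. For nicotine against vehicle at that start these fits gave 1, 2 and 0, where 15.8%, 16.6% and 11.2% of all genes were called. Across the groups 0 were called without 3-week vehicle libraries 1 and 2. Leaving out each library gave 0 to 2 across the groups, 0 to 1 for vehicle against air and for nicotine against vehicle at the 3-week start, 0 to 6 and 0 to 4 for the same at the 3-month start (the latter with fits of the compared groups included), and 0 in the other 5 contrasts. For the first 5 of these, all genes called ran to 49.7%, 44%, 30.3%, 20.6% and 18.9% at most, in that order. The compared-groups fits use fewer samples; the cause of the differences was not tested. The fits of that start only, the length offset within the compared groups and their left-out libraries were chosen after seeing the data. Of 90 member changes, 32 changed sign under some alternative, none larger than 0.26 in the main estimate. Same-numbered libraries of different groups had r from -0.37 to 0.28 over all genes (median 0.00852). Differently numbered ones ran from -0.593 to 0.561 (median -0.00338). With groups of 3 or 4 libraries, this check cannot show whether equal numbers share more than the number. With the replicate block 0 members were called in each of 9 contrasts and 1 across the groups. The 8 pathway genes called for vehicle against air at the 3-week start then fell to 0, where 0.0194% of all genes were called. Depth limits H2-Eb1 and Ciita, at 9 and 6 reads in their lowest libraries.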
